A study of Mus musculus with 18 samples.

Results

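The genes described are 36 genes of glycolysis and glycogen metabolism, chosen as a fixed list of named enzymes, glucose transporters, and regulators, out of 35150 genes to which the transcript values of mouse whisker pad tissue were summed. They were sorted into 11 muscle isoforms, which are the forms found mainly in skeletal muscle, 14 shared enzymes and regulators, which muscle has in common with other tissues (among them Aldoa, Ldha, and Gys1, the main forms of muscle), and 11 other isoforms, which are the forms of the same enzymes that other tissues use. RNA was measured on both sides of the face of 9 mice, a separate group of adult males and females whose strain is not given in the sources used here. In every mouse the branches of the facial nerve to the right whisker pad (buccal and superior marginal) were transected, and on the left the skin was opened and closed over an uncut nerve. The right side is therefore called denervated and the left side sham, and since the lesion was always on the right, left and right cannot be told apart from sham and lesion. Tissue was taken 1, 3, or 7 days after the lesion, from 3 mice at each day, so that there were 18 samples in 6 groups of 3. Each sample was a punch of skin and muscle together, so that a lower level in muscle fibers and a smaller share of muscle in the punch cannot be told apart from the level alone.

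Glycolysis splits glucose into pyruvate and lactate and is the fast source of ATP for contraction. Muscle stores glucose as glycogen and frees it through glycogen phosphorylase, which is switched on by phosphorylase kinase when calcium rises. Many of these enzymes exist as a muscle form and as forms of other tissues that are encoded by separate genes, and pyruvate kinase has both forms from 1 gene by the choice of 1 exon.

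The exons that make the forms of pyruvate kinase M are printed because its forms come from the same gene by a choice between these exons. Both are exon 9 of their transcripts, on the plus strand of build GRCm38, and are 167 bases long. The M1 exon, the one that adult muscle uses (chr9:59675029-59675195 in transcript Pkm-202), and the M2 exon (chr9:59675568-59675734 in Pkm-201) differ at 64 bases, which are in capitals, and are 61.7% identical.

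M1: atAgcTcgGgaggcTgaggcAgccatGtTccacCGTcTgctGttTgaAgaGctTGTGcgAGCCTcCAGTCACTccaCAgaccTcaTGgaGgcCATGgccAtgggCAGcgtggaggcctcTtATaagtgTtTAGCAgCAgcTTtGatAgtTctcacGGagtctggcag
M2: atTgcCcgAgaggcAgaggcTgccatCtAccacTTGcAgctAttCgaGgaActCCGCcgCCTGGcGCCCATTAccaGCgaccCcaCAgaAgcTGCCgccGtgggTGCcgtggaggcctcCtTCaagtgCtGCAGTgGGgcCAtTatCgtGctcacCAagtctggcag

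The promoters of Phkg1 and Eno3 are shown because these muscle isoforms had some of the lowest ratios of denervated to sham, and they were chosen after their values were seen. They are 300 bases long, 250 before and 50 after a RefSeq start, from the RefSeq table of build GRCm38.p6, at chr5:129879039-129879338 on the minus strand and at chr11:70656926-70657225 on the plus strand. Capitals mark the E-box letters CANNTG, which muscle transcription factors of the MyoD family can bind. Phkg1 has 5 matches, of which 2 overlap in the longest run of capitals, and Eno3 has 2.

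Phkg1: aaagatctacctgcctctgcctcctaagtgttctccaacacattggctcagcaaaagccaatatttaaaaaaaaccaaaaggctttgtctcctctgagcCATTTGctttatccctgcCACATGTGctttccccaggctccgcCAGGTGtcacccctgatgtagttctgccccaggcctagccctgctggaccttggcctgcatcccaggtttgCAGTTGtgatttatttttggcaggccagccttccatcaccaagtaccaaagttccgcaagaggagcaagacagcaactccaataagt
Eno3: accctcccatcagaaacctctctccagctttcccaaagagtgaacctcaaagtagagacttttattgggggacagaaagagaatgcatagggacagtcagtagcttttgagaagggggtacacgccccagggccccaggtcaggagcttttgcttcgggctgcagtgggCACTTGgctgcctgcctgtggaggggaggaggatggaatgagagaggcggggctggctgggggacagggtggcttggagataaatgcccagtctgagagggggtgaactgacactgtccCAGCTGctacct

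Of the members, 35 of 36 had a promoter in this table. The E-box letters, which read the same on both strands, were in 37 of 51 member promoters (72.5%) and in 72.3% of all 32851 promoters. By class they were in 14 of 16 promoters of muscle isoforms, 16 of 19 of shared enzymes, and 7 of 16 of other isoforms. A gene can have several promoters, and the 16 of the muscle isoforms belong to 10 genes. The consensus of the muscle factor MEF2, on either strand, was in 1 of the 51 member promoters, that of Ppp1r3a, and in 0.6% of all promoters. The letters ACGTG, the core that hypoxia-inducible factors bind, were searched on both strands and were in 23 of 51 member promoters (45.1%) and in 19.6% of all promoters.

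The labelled tissue was checked with marker lists. The summed level of 15 muscle structure genes such as Acta1 and Ttn was 7017 to 41290 TPM (a transcript level scaled for length and for the size of the library). Keratinocyte markers of skin summed to 5841 to 10800 TPM, and no gene of either list was at 0 throughout a group. The day 1 mouse called replicate 1 stood apart, with muscle structure sums of 7017 TPM on the sham side and 9502 TPM on the denervated side against 19930 or more in every other sample. The denervated side of day 7 replicate 1 also stood apart, with 16.7% of all values from 4 hemoglobin genes against 0.315% to 6.11% elsewhere. Results that rest on these mice are given with and without them.

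On the sham side the highest members were shared enzymes. Aldoa, the main aldolase of muscle, had a median of 3577 TPM over the 9 mice and Gapdh, which makes the first reduced cofactor of the pathway, had 3198 TPM. These neighbors did not differ beyond their spread, since Aldoa was above Gapdh in 4 of 9 mice. The next were the muscle isoforms Eno3 (enolase), with a median of 1220 TPM, and Pgam2 (phosphoglycerate mutase), with 874 TPM. Together the 36 genes made up 0.75% to 1.67% of the values of a sham sample.

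Muscle isoforms were more abundant than their counterparts for most enzymes. TPM are scaled for length, so that levels of different genes can be set side by side. The log2 ratio of Pfkm to Pfkl, muscle and liver phosphofructokinase, was 4.27 ± 0.79 (SD, n = 9 sham samples). The muscle phosphorylase Pygm stood above the brain form Pygb by 4.07 ± 0.91 (log2), and the exercise-responsive transporter gene Slc2a4 stood above the ubiquitous Slc2a1 by 1.5 ± 0.77. Phkg1 and Phkg2, the muscle and liver catalytic subunits of phosphorylase kinase, had a mean log2 ratio of 0.07 ± 1.00. At the lower end of the order were the regulator Pfkfb3, with a median of 7.56 TPM, the liver phosphorylase Pygl with 12.7 TPM, and the muscle regulator Pfkfb1 with 13.7 TPM. Pfkfb1 was above Pygl in 4 of 9 mice.

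**Figure D1:**
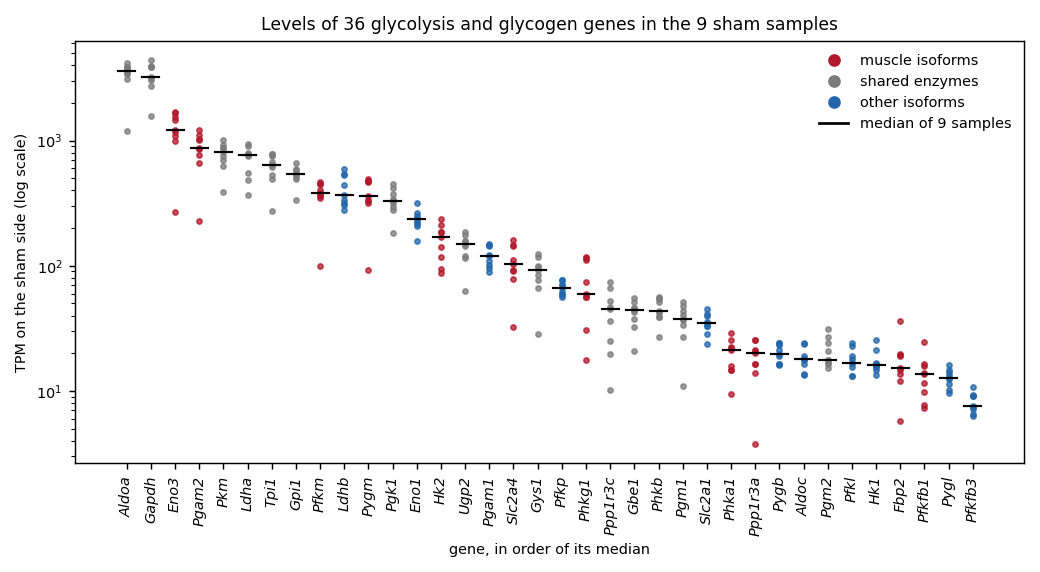
The level of each of 36 genes in TPM (log axis) in the 9 sham samples, 1 point per mouse, with the median as a black line and colors for the class. Aldoa and Gapdh lead at medians of 3577 and 3198 TPM, and the lowest points of the muscle isoforms come mostly from day 1 replicate 1.

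After denervation 10 of 11 muscle isoforms had estimates below 0, as did 10 of 14 shared enzymes, 6 of 11 other isoforms, and 48.2% of all genes tested. Over all days, 5 of 36 members were lower by limma's moderated test at an adjusted p under 0.05 and 0 were higher, which is 13.9% of the members, beside 3.1% of 14757 genes tested in either direction, 1.92% in the higher direction, and 1.18% in the lower direction. The 5 were the shared enzymes Tpi1 and Gys1, the muscle isoforms Phkg1 and Pfkfb1, and Ldhb of the other isoforms. The median log2 fold change, denervated over sham, was -0.67 for the muscle isoforms, -0.18 for the shared enzymes, and -0.02 for the other isoforms, beside 0.01 for all genes tested.

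With the mouse as a block, 10 members were called, 9 lower and 1 higher, beside 3.5% of all genes. Those added were Pfkm, Pgam2, Eno3, and Ppp1r3a, which were lower, and Phka1, which was higher. Without day 1 replicate 1, 13 members were called, 12 lower and 1 higher, beside 4.68% of all genes (692 genes, of which 363 were higher). Without day 7 replicate 1, only Pfkfb1 was called, beside 231 genes in all. Without a mouse of day 3, or either other mouse of day 7, 2 or 3 members and 227 to 363 genes were called. Scaled to the muscle structure genes, Phkg1 and Pfkfb1 were called, beside 0.88% of all genes. Tpi1, Ldhb, and Gys1 had estimates of -0.61, -0.57, and -0.76 under this scaling and did not pass (adjusted p of 0.480, 0.727, and 0.0901). Of the 457 genes called over all days, 283 were higher, and under that scaling 64 of 129 were.

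In single mice, the median difference of log2(TPM + 0.5) over the 11 muscle isoforms, denervated minus sham, was 0.26, -0.53, and -1.21 at day 1, -0.95, -0.56, and -0.52 at day 3, and -0.90, -0.78, and -0.60 at day 7. It was below 0 in every mouse but day 1 replicate 1. Over the 11 other isoforms it ran from -0.26 to 0.26, and over all genes tested from -0.03 to 0.07. Across the 9 mice, Ldhb, Phkg1, Ppp1r3a, Slc2a4, and Pfkfb1 were lower on the denervated side in all 9, and Phka1 was higher in all 9. Of all genes tested, 1.42% were lower and 1.94% higher in all 9 mice.

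**Figure D2:**
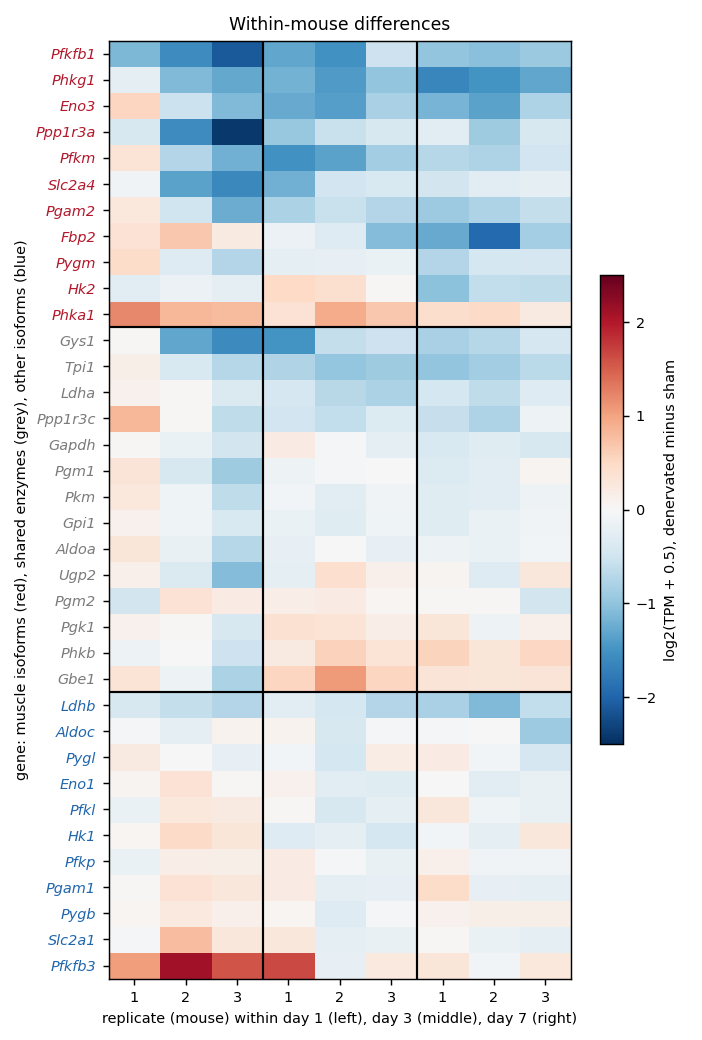
Within-mouse differences of log2(TPM + 0.5), denervated minus sham, for 36 genes in rows and 9 mice in columns, with blue for lower and red for higher on the denervated side. The upper block of muscle isoforms is mostly blue outside the first column, day 1 replicate 1, and Phka1 is red in all 9 mice.

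At day 1 no member passed the test, nor did any of 14776 genes (0.0%), while 2 members and 634 genes had an unadjusted p under 0.05. At day 3, 3 members were lower (Pfkm, Tpi1, and Eno3), 8.33% of the members beside 0.442% of 14943 genes called lower and 1.45% called in either direction. At day 7, 5 members were lower (Pfkm, Tpi1, Eno3, Phkg1, and Pfkfb1), 13.9% beside 0.511% of 15081 genes called lower and 1.53% in either direction. The median over the muscle isoforms was -0.49 at day 1, -0.68 at day 3, and -0.76 at day 7. At day 3 all 3 denervated samples were below all 3 sham samples for 12 members, and at day 7 for 18, beside 9.82% and 7.06% of all genes. With the mouse as a block, 3 members were called at day 3 (Pfkm, Tpi1, and Phkg1), beside 1.45% of all genes, and 6 at day 7 (Tpi1, Pgam2, Eno3, Ldhb, Phkg1, and Pfkfb1), beside 2.17%. In a limma fit of all 18 samples together, 0 members were called at days 3 and 7, beside 2.12% and 1.44% of all genes. The member calls were not kept when a mouse was left out, and the calls over all genes fell as well. At day 3, 217 genes were called with all mice, and 133, 7, and 0 without replicate 1, 2, or 3, with 0 members each time. At day 7, 230 genes were called with all mice, and 1, 5, and 127 without replicate 1, 2, or 3. Of the members, 0, 0, and 1 were called.

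**Figure D3:**
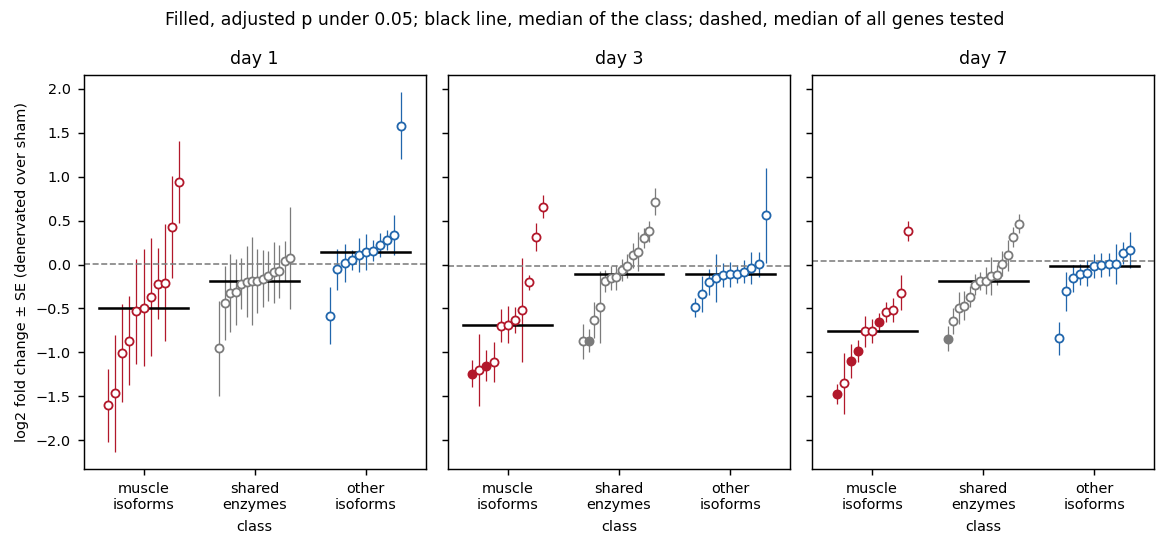
Log2 fold change ± SE of each member, denervated over sham, at days 1, 3, and 7 by class, with filled points for an adjusted p under 0.05, a black line for the class median, and a dashed line for the median of all genes tested. The muscle isoforms lie lowest at each day, with medians of -0.49, -0.68, and -0.76, and the filled points are at days 3 and 7.

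Glucose enters muscle through transporters and is trapped by hexokinase. Slc2a4, which encodes the insulin-regulated transporter, was 32.6, 112, and 147 TPM on the sham side and 30.6, 44.2, and 48.2 TPM on the denervated side at day 1, in the order of the mice. It was 90.03, 93.1, and 78.5 against 39.0, 67.0, and 60.1 TPM at day 3, and 160, 143, and 104 against 116, 118, and 88.8 TPM at day 7. The denervated side was the lower one in every mouse, and the groups did not overlap at day 3. The log2 fold change over all days was -0.67 ± 0.23 (SE), with an adjusted p of 0.145, or 0.05001 with the mouse as a block, so that it did not pass. The ubiquitous transporter Slc2a1 had an estimate of 0.06 ± 0.11.

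Hk2, the hexokinase of muscle, was 88.2, 169, and 186 TPM (sham) against 72.4, 153, and 160 TPM (denervated) at day 1. At day 3 it was 93.8, 118, and 140 against 133, 155, and 144 TPM, and at day 7 it was 213, 237, and 186 against 104, 154, and 120 TPM. The denervated side was thus lower in 3 of 3 mice at day 1, higher in 3 of 3 at day 3, and lower in 3 of 3 at day 7. No day passed the test, with an adjusted p of 0.124 at day 7, and for this gene 80.2% of the value came from a transcript not annotated as coding. With coding transcripts alone the estimate was 0.16 at day 3 and -0.30 at day 7. Hk1, the ubiquitous hexokinase, was between 12.5 and 25.7 TPM in all samples.

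Phosphofructokinase commits sugar to glycolysis. Pfkm, its muscle form (chr15:98092589-98132451), was 99.1, 364, and 466 TPM on the sham side and 125, 220, and 201 TPM on the denervated side at day 1. The values were 368, 383, and 345 against 128, 150, and 189 TPM at day 3, and 449, 453, and 402 against 273, 264, and 289 TPM at day 7. At days 3 and 7 every denervated sample was below every sham sample, and at day 1 replicate 1 went the other way. The log2 fold change was -1.24 ± 0.15 at day 3 (adjusted p = 0.0173) and -0.66 ± 0.11 at day 7 (adjusted p = 0.0421). When the mouse was taken as a block these were 0.0416 and 0.0507, so that the call at day 7 was lost. Pfkl and Pfkp, the liver and platelet forms, had estimates of -0.03 ± 0.10 and 0.01 ± 0.07 over all days. Some transcripts of Pfkp share nearly all of a sequence with the neighboring Pitrm1, whose level was 45.2% of that of Pfkp, so that reads of the pair may be split.

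Enzymes of the Pfkfb family make and remove the sugar bisphosphate that activates phosphofructokinase. Pfkfb1 (chrX:150588229-150643878), the form of liver and muscle, was 7.72, 16.3, and 24.5 TPM on the sham side against 3.28, 5.13, and 5.32 TPM on the denervated side at day 1. It was 11.7, 9.85, and 7.38 against 4.48, 3.11, and 4.996 TPM at day 3, and 15.9, 14, and 13.7 against 7.75, 6.496, and 7.01 TPM at day 7. The groups did not overlap at any of the 3 days. Pfkfb1 fell over all days by 1.23 ± 0.18 (log2, adjusted p = 0.000874) and at day 7 by 0.99 ± 0.13 (adjusted p = 0.0144), and it was called over all days without any 1 of the mice. At day 1 the estimate was -1.60 ± 0.42, and no gene passed at that day.

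Pfkfb3, the inducible form with high kinase activity, was 6.26, 7.12, and 10.7 TPM on the sham side at day 1 and 13.5, 32.1, and 32.8 TPM on the denervated side. At day 3 the denervated samples had 29.6, 6.42, and 7.81 TPM, and at day 7 11.6, 7.18, and 10.95 TPM, against sham samples that were all between 6.54 and 9.29 TPM. The denervated side was thus at least 13.5 TPM in 3 of 3 mice at day 1 and in 1 mouse at day 3. The log2 estimate at day 1 was 1.57 ± 0.38 with an unadjusted p of 0.00555 and an adjusted p of 0.999. Of its value, 56.5% came from a transcript annotated as a target of nonsense-mediated decay.

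Fbp2, the muscle fructose bisphosphatase that runs the step backward toward glycogen, was 5.75, 13.8, and 19.7 TPM (sham) against 7.55, 22.3, and 23.3 TPM (denervated) at day 1. At day 7 it was 14.7, 15.2, and 19.3 against 5.84, 3.57, and 10.5 TPM. It was higher in 3 of 3 mice at day 1 and lower in 3 of 3 at days 3 and 7, but the estimate of -1.35 ± 0.35 at day 7 did not pass (adjusted p = 0.156), nor did the difference between days 7 and 1.

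The middle of the pathway is made of shared enzymes, and Tpi1 was the one that fell. Tpi1, triosephosphate isomerase (chr6:124810586-124814296), was 274, 533, and 747 TPM (sham) against 304, 412, and 453 TPM (denervated) at day 1. It was 492, 638, and 618 against 292, 327, and 334 TPM at day 3, and 774, 677, and 781 against 393, 368, and 488 TPM at day 7. Outside day 1 no denervated sample reached the lowest sham sample. The log2 fold change was -0.68 ± 0.16 over all days (adjusted p = 0.0258), -0.87 ± 0.13 at day 3 (0.0392), and -0.84 ± 0.14 at day 7 (0.0473), and it passed each of these with the mouse as a block. The call over all days was lost without any 1 mouse of day 3 or day 7 (adjusted p of 0.0595 to 0.102).

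The estimates of its neighbors in the pathway were nearer to 0. Gpi1, the isomerase before phosphofructokinase, had an estimate of -0.17 ± 0.11 over all days. Aldoa stood at 3368, 3577, and 3440 TPM (sham) against 2903, 3543, and 2965 TPM (denervated) at day 3, with an estimate of -0.15 ± 0.18 over all days. A second gene ID of the same symbol held 2.44 TPM at most and was left out. Gapdh was 3949, 3860, and 4399 against 3017, 3113, and 3313 TPM at day 7, where the groups did not overlap but the estimate of -0.37 did not pass (adjusted p = 0.274), and with coding transcripts alone it was -0.11. Nearly identical pseudogene copies of Gapdh, in 110 genes, summed to 2.83% of its value. Pgk1, which makes the first ATP of the pathway, had an estimate of 0.10 ± 0.14, and Aldoc, the brain aldolase, of -0.16 ± 0.12, and none of these passed.

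**Figure D4:**
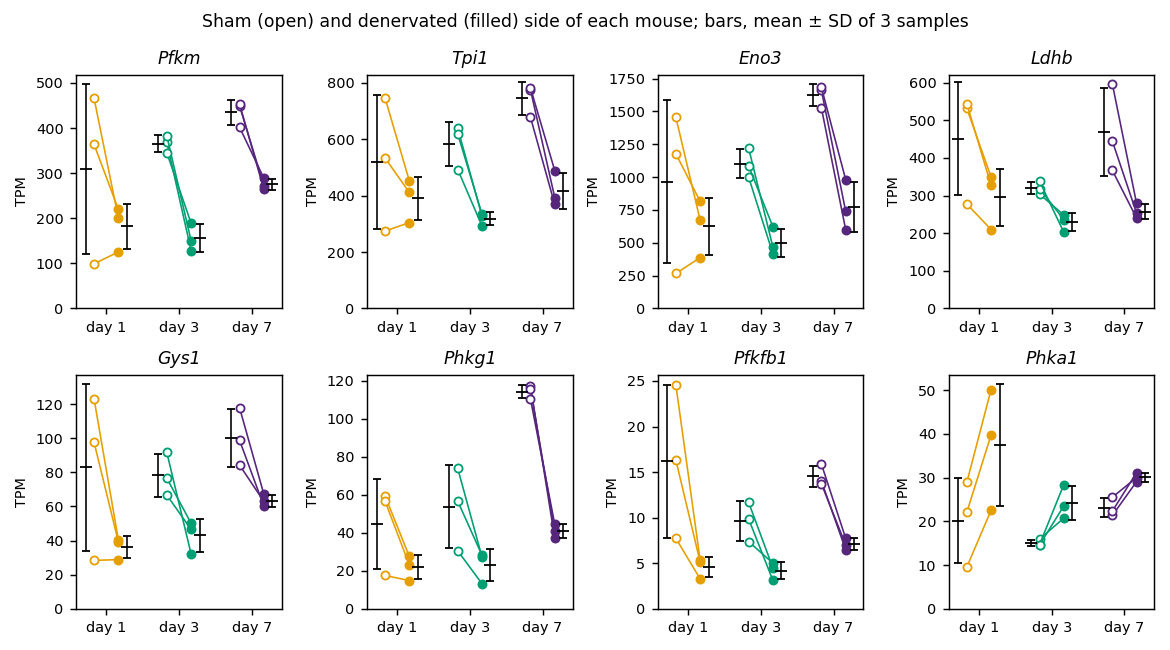
TPM of 8 members on the sham side (open points) and the denervated side (filled points) of each mouse, joined by a line, at days 1, 3, and 7, with the mean ± SD of 3 samples beside them. At days 3 and 7 the sides of Pfkm, Tpi1, Eno3, Ldhb, Gys1, Phkg1, and Pfkfb1 do not overlap, with the denervated side lower, and Phka1 is the gene in which every line rises.

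In the lower part of the pathway the muscle form of enolase fell at days 3 and 7, and that of the mutase passed only under some alternative settings. Eno3, muscle enolase (chr11:70657202-70662513), was 267, 1177, and 1454 TPM (sham) against 387, 815, and 672 TPM (denervated) at day 1. It was 999, 1220, and 1084 against 415, 466, and 622 TPM at day 3, and 1662, 1527, and 1684 against 740, 601, and 981 TPM at day 7. Day 1 replicate 1 was the only mouse with a higher denervated side. The log2 fold change was -1.15 ± 0.18 at day 3 (adjusted p = 0.0391, or 0.0518 with the mouse as a block, which ends the call) and -1.10 ± 0.19 at day 7 (0.0484, or 0.0255 with the block). Over all days the adjusted p was 0.0944, and 0.0254 with the block.

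Pgam2, muscle phosphoglycerate mutase, was 663, 862, and 773 against 382, 583, and 466 TPM at day 3 and 1015, 1036, and 1111 against 542, 610, and 734 TPM at day 7. The groups did not overlap at either day. The estimate was -0.70 ± 0.19 at day 3 (adjusted p = 0.161) and -0.76 ± 0.14 at day 7 (0.0634, or 0.0326 with the mouse as a block, which adds the call). At day 7 it was also called with median-of-ratios scaling, and over all days with the mouse as a block or without day 1 replicate 1. The other forms Pgam1 and Eno1 had estimates of 0.05 ± 0.11 and -0.05 ± 0.12 over all days. Copies nearly identical to Eno1, mostly Eno1b, summed to 10.2% of its value.

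Pkm, pyruvate kinase, was 1007, 865, and 866 against 811, 720, and 798 TPM at day 7, with an estimate over all days of -0.18 ± 0.13 (adjusted p = 0.589). The transcript with the M1 exon made up 9.17%, 25.5%, and 33.5% of the summed M1 and M2 transcripts on the sham side at day 1 and 20.0%, 22.6%, and 16.4% on the denervated side. It made up 36.4%, 36.4%, and 31.6% against 28.9%, 32.6%, and 38.1% at day 3, and 34.9%, 34.3%, and 31.8% against 44.5%, 34.5%, and 42.1% at day 7. The groups overlapped at each day, and at day 7 the denervated share was the higher one in 3 of 3 mice.

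Lactate dehydrogenase has a muscle subunit, Ldha, and a heart subunit, Ldhb, and the heart subunit was the one that passed over all days. Ldhb (chr6:142490249-142507957) was 278, 532, and 544 TPM (sham) against 210, 349, and 327 TPM (denervated) at day 1. It was 304, 319, and 338 against 248, 236, and 202 TPM at day 3, and 445, 597, and 367 against 253, 279, and 240 TPM at day 7. It was lower in 9 of 9 mice and fell over all days by 0.64 ± 0.14 (log2, adjusted p = 0.0175). This call was lost without replicate 2 or 3 of day 3, or without replicate 1 or 2 of day 7 (adjusted p of 0.0505 to 0.0721). At day 7 the adjusted p was 0.114, or 0.0386 with the mouse as a block. Ldha had an estimate of -0.39 ± 0.15 over all days, with an adjusted p of 0.203, or 0.0520 with the block. For Ldha, too, all denervated samples were below all sham samples at days 3 and 7. At day 3 the estimate was -0.63 for Ldha and -0.49 for Ldhb, and neither passed.

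Among the genes of glycogen synthesis Gys1 fell and Gbe1 did not pass. Gys1, muscle glycogen synthase (chr7:45434844-45456619), was 28.4, 97.6, and 123 TPM (sham) against 28.9, 39.4, and 40.5 TPM (denervated) at day 1. It was 91.7, 76.6, and 66.7 against 32.2, 50.2, and 46.6 TPM at day 3, and 118, 98.8, and 84.3 against 67.2, 60.3, and 63.0 TPM at day 7. The sides were alike in day 1 replicate 1 and apart in the other 8 mice. The log2 fold change was -0.82 ± 0.21 over all days (adjusted p = 0.0419), and this call was lost without any 1 mouse except day 1 replicate 1 (adjusted p of 0.0546 to 0.125), and with all genes above 0 tested (0.0534). Gbe1, the branching enzyme, was 45.6, 32.5, and 37.5 against 66.8, 68.9, and 54.3 TPM at day 3, where the estimate was 0.71 ± 0.16 (adjusted p = 0.102), and its estimate at day 1 was -0.19 ± 0.36.

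Ppp1r3a, the muscle subunit that brings a phosphatase to glycogen, was 3.77, 16.3, and 25.3 TPM (sham) against 2.72, 5.16, and 4.32 TPM (denervated) at day 1. It was 20.3, 16.5, and 13.9 against 10.3, 11.03, and 10.5 TPM at day 3, and 20.9, 25.4, and 21.2 against 17.1, 13.6, and 16.02 TPM at day 7. It was lower in 9 of 9 mice, with an estimate of -0.87 ± 0.26 over all days (adjusted p = 0.0890, or 0.0460 with the mouse as a block, which adds the call). Ppp1r3c, a related subunit, had -0.30 ± 0.27. Ugp2, Pgm1, and Pgm2, which prepare glucose for the polymer, had estimates between -0.19 and 0.02 and did not pass.

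Glycogen breakdown is run by phosphorylase and its kinase. Pygm, muscle phosphorylase, was 329, 318, and 335 against 278, 277, and 299 TPM at day 3 and 496, 469, and 476 against 299, 344, and 353 TPM at day 7, so that the groups did not overlap at either day. Its estimate at day 7 was -0.54 ± 0.11 (adjusted p = 0.0928). More of its value (52.2%) came from a transcript with a retained intron than from coding ones, and with coding transcripts alone the estimate was -0.35. Pygb and Pygl, the brain and liver forms, had estimates of 0.06 ± 0.09 and -0.06 ± 0.10 over all days.

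Of the subunits of phosphorylase kinase Phkg1 fell, Phka1 was higher in every mouse, and Phkb differed in sign between days. Phkg1, the muscle catalytic subunit (chr5:129863421-129898549), was 17.5, 59.5, and 56.7 TPM (sham) against 14.9, 27.6, and 23.2 TPM (denervated) at day 1. It was 30.5, 73.8, and 56.6 against 13.2, 27.2, and 28.2 TPM at day 3, and 117, 116, and 110 against 37.2, 41.0, and 44.5 TPM at day 7. It was lower in 9 of 9 mice, and fell by 1.18 ± 0.24 over all days (log2, adjusted p = 0.0106) and by 1.47 ± 0.11 at day 7 (0.00332). The call over all days was lost without day 7 replicate 1 (adjusted p = 0.0521), and that at day 7 without replicate 1 or 2 (0.147 and 0.125). At day 3 it was called with the mouse as a block (0.0230). Transcripts of Sumf2, which share sequence with it, had 29.7% of its level, and with coding transcripts alone it fell by 1.52 at day 7.

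Phka1, the muscle regulatory subunit (chrX:102513975-102644246), was 9.54, 22.1, and 28.9 TPM (sham) against 22.5, 39.8, and 50.1 TPM (denervated) at day 1. It was 15.9, 14.7, and 14.6 against 20.7, 28.4, and 23.5 TPM at day 3, and 21.3, 22.3, and 25.5 against 29.1, 31.1, and 30.0 TPM at day 7. It is the member with a higher denervated side in all 9 mice. The log2 estimate was 0.66 ± 0.18 over all days, with an adjusted p of 0.0604, and of 0.00451 when the mouse was a block, which adds the call. Phkb, the shared regulatory subunit, was above the sham side in 3 of 3 mice at days 3 and 7, with an estimate of 0.46 ± 0.11 at day 7 (adjusted p = 0.126). Its estimate at day 1 was -0.22 ± 0.29. For Phkb 82.1% of the value came from a transcript not annotated as coding, and with coding transcripts alone the estimate at day 7 was 0.82 (adjusted p = 0.252).

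Muscle isoforms, and Aldoa, Ldha, and the M1 form of Pkm, were then set against their counterparts within each sample. The difference of the log2 ratio, denervated minus sham of the same mouse, was tested over 9 mice with a two-sided exact sign-flip permutation test, whose smallest p is 0.0039, for 14 pairs, and the p values were adjusted over the 14. Of these, 8 passed, 7 with a lower share of the muscle form and 1 with a higher share. The pairs were chosen with earlier results of these data known, so the count only describes these mice. Ratios of other genes were not tested beside them. Such a ratio can also move with the amount of muscle in the punch, and a change within fibers cannot be told apart from it. The ratio of Pfkfb1 to Pfkfb3 changed most, at -1.999 ± 1.16 (SD, n = 9; lower in 9 of 9 mice; exact p = 0.0039, adjusted p = 0.0182). The log2 fold changes of Pfkfb1 and Pfkfb3 were -1.60 and 1.57 at day 1, -1.11 and 0.56 at day 3, and -0.99 and 0.16 at day 7. Pfkfb3 passed at none of these days. The ratio of Slc2a4 to Slc2a1 was also lower in 9 of 9 mice, at -0.73 ± 0.84 (exact p = 0.0039, adjusted p = 0.0182). Its mean difference was -1.34 at day 1, -0.64 at day 3, and -0.21 at day 7. Of the Slc2a1 value, 82.8% came from a transcript annotated as a target of nonsense-mediated decay.

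Ratios that were lower in 8 of 9 mice, with day 1 replicate 1 as the exception, were Phkg1 to Phkg2 (-1.04 ± 0.51), Eno3 to Eno1 (-0.82 ± 0.56), Pgam2 to Pgam1 (-0.70 ± 0.55), Pfkm to Pfkp (-0.82 ± 0.64), and Pfkm to Pfkl (-0.78 ± 0.62). The last 2 share the values of Pfkm. The ratio of Phka1 to Phka2, the muscle and liver regulatory subunits, was higher in 9 of 9 mice, at 0.69 ± 0.41 (exact p = 0.0039, adjusted p = 0.0182).

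Ratios that did not pass were Hk2 to Hk1, Aldoa to Aldoc (0.01 ± 0.47), Ldha to Ldhb (0.24 ± 0.31), Pygm to Pygb (-0.37 ± 0.43, adjusted p = 0.0547 by the exact test), Pygm to Pygl, and the M1 to the M2 transcripts of Pkm. The last changed by 0.07 ± 0.77 (exact p = 0.777), with single mice from -1.35 to 1.295, so that a change in either direction was not detectable beyond the spread between mice. For the Ldha to Ldhb ratio the single days had means of 0.50, -0.14, and 0.37.

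**Figure D5:**
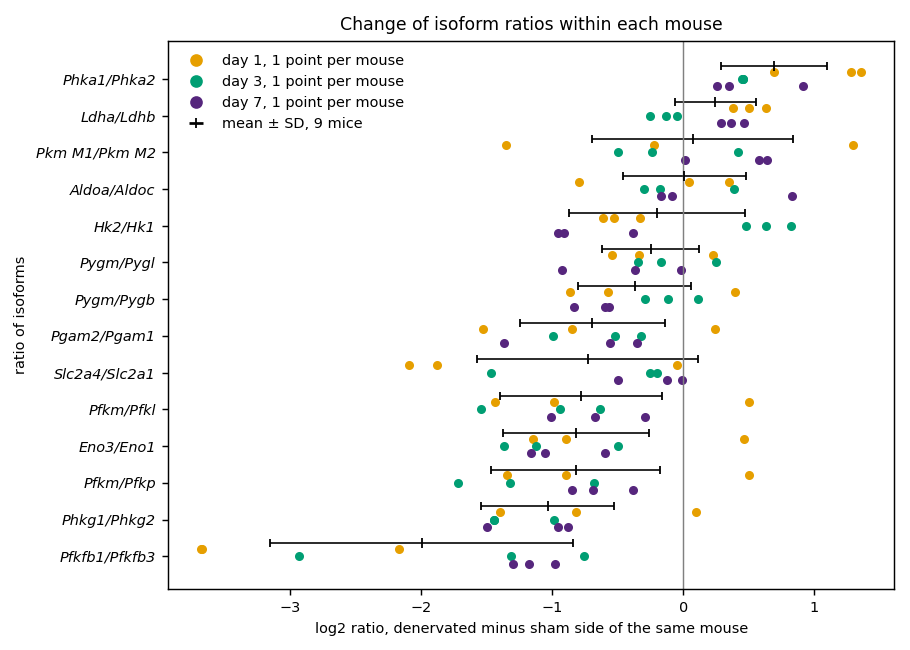
Change of 14 isoform ratios on the log2 scale, denervated minus sham, with 1 point per mouse colored by day and the mean ± SD of 9 mice in black. Pfkfb1 to Pfkfb3 lies farthest to the left with a mean of -1.999, and Phka1 to Phka2 is the ratio with every point above 0.

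The effect of denervation was compared between days by interaction terms, fitted to the 18 samples together. No member passed for day 3 against day 1, day 7 against day 1, or day 7 against day 3, beside 0.122%, 0.163%, and 0.0% of 14757 genes. With the mouse as a block no member passed either. Without day 1 replicate 1, Gbe1 and Ppp1r3a passed for day 3 against day 1, and Ppp1r3a for day 7 against day 1, all with higher estimates at the later day, beside 1.0% and 0.555% of all genes.

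Of 55 other genes of the pathway, 45 could be tested over all days. Of these, 1 was higher and 2 were lower, which is 6.67% of those tested, beside the 3.1% of all genes. Stbd1, which tethers glycogen to membranes for its breakdown in lysosomes, was 5.99, 7.65, and 10.7 TPM (sham) against 9.12, 12.3, and 9.24 TPM (denervated) at day 1. It was 8.88, 11.4, and 9.66 against 57.8, 67.8, and 58.6 TPM at day 3, and 15.5, 10.8, and 15.1 against 42.2, 50.6, and 46.6 TPM at day 7. The sides were far apart at days 3 and 7 and overlapped at day 1. The log2 fold change was 2.57 ± 0.12 at day 3 (adjusted p = 0.000743) and 1.73 ± 0.17 at day 7 (0.00673), and the rise at day 3 was greater than at day 1 by 2.23 ± 0.27 (0.00198). The call at day 3 was lost without replicate 3 (adjusted p = 0.0682), and that at day 7 without replicate 1 (0.170) or 2 (0.118). Scaled to the muscle structure genes, the difference between the days was 2.20 and no longer passed (adjusted p = 0.899).

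Tigar, which removes the activator of phosphofructokinase, was lower in all 9 mice and fell over all days by 0.73 ± 0.10 (log2, adjusted p = 0.000431). Scaled to the muscle structure genes it had -0.67 and did not pass (adjusted p = 0.516). Pdp1, the phosphatase that switches on pyruvate dehydrogenase, fell by 0.93 ± 0.21 (adjusted p = 0.0218, or 0.0556 with the mouse as a block, which ends the call). It did not pass under the muscle scaling either (-0.87, adjusted p = 0.114), nor without day 1 replicate 2 (0.0729) or without day 3 replicate 1 (0.0745) or 2 (0.0641). Slc16a3, the lactate exporter of glycolytic fibers, was 18.4, 19.2, and 19.9 TPM (sham) against 7.63, 9.65, and 10.1 TPM (denervated) at day 3. It fell at that day by 1.04 ± 0.13 (adjusted p = 0.0171), and its groups did not overlap. This call was lost in a fit of all 18 samples (adjusted p = 0.320) and without day 3 replicate 2 (0.287) or 3 (0.193).

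Marker lists of the cell types in the punch were set beside these results. The summed muscle structure genes differed between the sides by 0.44, -0.13, and -0.70 at day 1 (log2, denervated over sham), by -0.07, 0.22, and -0.06 at day 3, and by -0.01, -0.10, and 0.31 at day 7. None of the 15 was called over all days, and 1 was higher at day 7. The scaling to the 15 genes used their geometric mean, not their sum. Its factor, denervated against sham, was 0.75 against 1.018 in day 3 replicate 1 and 1.872 against 1.32 in day 7 replicate 3. At day 1 it was 0.36 against 0.242 in replicate 1, the lowest of all samples, and 0.755 against 1.385 in replicate 3. Why calls were lost under this scaling was not tested. This scaling moved the median of all genes by 0.18 at day 1, 0.14 at day 3, and -0.11 at day 7. Under it, Pfkm had an estimate of -1.08 at day 3 and passed. Eno3, Phkg1, and Pfkfb1 had -1.26, -1.63, and -1.11 at day 7 and passed, while Tpi1 (-0.71 at day 3 and -1.01 at day 7), Eno3 at day 3 (-0.99), and Pfkm at day 7 (-0.82) no longer passed.

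Of the neutrophil list, which includes S100a8 and S100a9, 4 of 5 genes could be tested and 1 was higher over all days, and the sum was higher on the denervated side in 9 of 9 mice. It was 24.4 to 957 TPM in the sham groups and 95.5 to 2654 TPM in the denervated groups. The sum does not stand for each gene of the list. At day 3 it differed by 2.08, 2.53, and 3.51 (log2), while the median log2 fold change of the 4 tested genes was 0.38. Which cells these genes came from was not tested. Sums of keratinocyte, fibroblast, macrophage, adipocyte, Schwann cell, and endothelial markers were higher in 3, 6, 6, 6, 2, and 4 of 9 mice, and none of their genes was called over all days or at a single day. The part of these cell types in the results on the members was not tested.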

How the data were processed

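RNA-seq was analysed in 18 samples, both sides of 9 mice, grouped by day and lesion from the labels. TruSeq libraries were sequenced by the authors. Their reads were base-called (bcl2fastq), deduplicated (ParDRe), trimmed (Fastp), and quantified against GRCm38 cDNA by Kallisto 0.43.1 and Sleuth. Each deposited signal value is a TPM of a transcript that the authors also normalized between samples, since the sums run from 833186 to 1143839 and plain TPM would all sum to 1000000. The tests had been chosen for plain TPM and were kept. TPM keep no read counts, so that depth and counting intervals are not given. Without strand or counts, reads of near copies may be split between genes.

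Of 113194 transcripts, 98.46% matched GENCODE M21 and were summed for 35150 genes. Genes that reached a TPM of 1 in 47% or more of the samples compared were fitted on log2(TPM + 0.5) with limma 3.58.1 in R 4.3.3 (moderated test, trend, Benjamini-Hochberg adjustment over all genes, threshold 0.05). Fold changes are on that scale and understate the change of low genes. Over all days the day was a covariate, single days were fitted alone, and the mouse was a block in a second fit. Both sides come from the same animal, and the deviations of the sides from their group means correlated by 0.163 to 0.568 in the 9 mice. Copies were sequences at least 95% identical over at least 200 bases. Tables, exact tests, and plots were made with Python 3.11.15 (numpy 2.4.6, pandas 2.3.3, matplotlib 3.10.9), and the tests were tried on simulated data.

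The members, classes, pairs, and lists were chosen with earlier results of these data known. Named genes were all 36 members, their partners in pairs, and other genes of the pathway that were called over all days or at any day. The hemoglobin genes were chosen after their values were seen. Alternatives were other pseudocounts, minimum values, and scalings, the mouse as a block, no trend, 1 fit of all samples, coding transcripts alone, and leaving out each mouse.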

Additional observations from a re-analysis of the deposited data

Results flagged for a closer look

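The rise of Stbd1 differed between days: it was greater at day 3 than at day 1 by 2.23 on the log2 scale (limma interaction term, adjusted p = 0.00198).

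For isoform ratios, every mouse of a day moved one way and every mouse of another day the opposite way in 4 cases, and these differences were not tested. The log2 ratio of Hk2 to Hk1, denervated minus sham, averaged -0.49 (day 1), 0.64 (day 3), and -0.75 (day 7), which makes a difference between days 1 and 3 of -1.13 and between days 3 and 7 of 1.39. The ratio of Ldha to Ldhb averaged 0.50, -0.14, and 0.37, with differences of 0.65 and -0.52 between the same days. For Hk2, 80.2% of the value came from a transcript not annotated as coding. With coding transcripts alone its own estimates were -0.08 at day 1, 0.16 at day 3, and -0.30 at day 7.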

How the results depend on the processing

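Single genes and ratios that passed kept their direction in all 429 alternative values, and 87 of these no longer passed. Over all days 457 genes and 5 members were called, and scaling to the muscle structure genes gave 129 and 2. With the replicate block by mouse, 10 members were called over all days, 3 at day 3, and 6 at day 7. For day 3 against day 1 the block gave 68 genes where 18 were called without it, and for day 7 against day 3 it gave 1 where 0 were called. For the isoform ratios, ignoring the mouse gave 7 of 14 instead of 8, with Pgam2 to Pgam1 lost (adjusted p = 0.0529). At day 1, 0 genes were called, and 1 with all genes above 0, 2 with equal sums, 18 with muscle scaling, 6 with no trend, and 29 in a fit of all 18 samples. At day 3, 3 members were called, but 1 with all genes above 0 or with no trend, and 0 in a fit of all 18 samples. At day 7, 5 members were called, but 2 with all genes above 0 or with no trend, 3 with equal sums, and 0 in a fit of all 18 samples. That fit called 313 genes at day 3 and 212 at day 7, where the fits of single days called 217 and 230. For day 3 against day 1 muscle scaling gave 0 genes, and for day 7 against day 1, where 24 were called, it gave 1 and equal sums gave 15. For day 7 against day 3 a pseudocount of 1 gave 1.

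Leaving out each mouse gave 227 to 692 genes and 1 to 13 members over all days, 0 to 4 genes at day 1, 0 to 133 genes and 0 members at day 3, and 1 to 127 genes and 0 to 1 members at day 7. For day 3 against day 1 it gave 6 to 148 genes and 0 to 2 members, for day 7 against day 1 0 to 82 genes and 0 to 1 members, and for day 7 against day 3 0 to 1 genes. The highest counts over all days and for days 3 and 7 against day 1 came without day 1 replicate 1, and the 1 gene for day 7 against day 3 came without day 3 replicate 1. With coding transcripts alone, estimates over all days that had not passed also moved, to -0.07 for Pygb, -0.06 for Aldoc, -0.10 for Gpi1, 0.12 for Slc2a1, and 0.04 for Pfkp. The cause of these differences was not tested, and leaving out a mouse also leaves fewer samples. With 3 mice at each day, small changes cannot be told from the spread between mice.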
